A study of Mus musculus with 12 samples.

Results

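The 10 genes described here are the 7 mouse sirtuins (Sirt1 to Sirt7) and 3 enzymes of the metabolism of their cofactor, NAD (Nampt, Nnmt and Parp1). They were picked by name from the 49315 gene identifiers of the count tables, and all 10 had enough reads to be tested among 17416 genes. The cells were primary mouse adult fibroblasts (MAFs) grown from the ears of adult female wild-type (WT) C57BL/6 mice or of BMAL1 -/- (KO) mice, which lack a working BMAL1, the clock factor whose gene the annotation lists as Arntl. Control cells of both genotypes were sham irradiated and senescent cells received 20 Gy of X-rays. The study's methods say that irradiated cells were then kept in culture for some weeks, and give no such period for control cells. Any effect of time in culture and that of senescence thus cannot be told apart. All 4 groups were treated with 100 nM dexamethasone, which sets the phase of the circadian clock, and were collected 12 h later, so each group was seen at 1 clock time and every group carried the glucocorticoid. Each group had 3 RNA-seq libraries. The sources used here do not say whether the 3 came from separate animals or cultures, so p-values measure the spread between libraries, which may be technical.

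Sirtuins are enzymes that remove acyl groups from proteins and break down a molecule of NAD each time they do so. SIRT1, SIRT6 and SIRT7 act mainly in the nucleus, SIRT2 mainly in the cytoplasm and SIRT3, SIRT4 and SIRT5 in mitochondria. The reaction releases nicotinamide, which NAMPT returns to the NAD pool in the rate-limiting step of salvage, while NNMT methylates nicotinamide and takes it out of the pool. PARP1 senses DNA breaks and spends NAD to build poly(ADP-ribose) chains. Nampt is known as a clock output: CLOCK and BMAL1 bind E-boxes, whose core letters are CACGTG, in its regulatory DNA, and SIRT1 feeds back on that pair of factors.

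The series title links BMAL1 with AP-1, a stress-induced factor, and BMAL1 is known to bind E-boxes, so the start regions of the genes were searched for both. RefSeq promoters of the GRCm38.p6 assembly, windows of 300 bases around an annotated start, were at hand for 9 of the 10 genes, with 11 windows in all and none for Nnmt. The E-box CACGTG, which reads the same on both strands, was in 2 of the 11 windows, those of Sirt1 and Parp1, and in 7.15% of all 32851 promoters. The AP-1 site TGAGTCA, searched on both strands, was in 0 of the 11 and in 5.2% of all. The 150 bases upstream of the start are shown for the pair of genes with a match and for Nampt, 5′ to 3′ on the gene's strand, with E-boxes in capitals. Sirt1 lies on the minus strand (chr10:63339036-63339185), with E-boxes that begin 115 and 43 bases before the start. Parp1 lies on the plus strand (chr1:180568741-180568890), with an E-box that begins 49 bases before the start. Nampt lies on the plus strand (chr12:32820185-32820334) and its window held neither motif, which says only that these letters are not in it.
Sirt1: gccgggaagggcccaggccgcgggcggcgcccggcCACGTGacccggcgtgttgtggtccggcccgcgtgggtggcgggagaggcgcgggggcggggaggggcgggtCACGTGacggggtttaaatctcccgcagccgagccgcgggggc
Parp1: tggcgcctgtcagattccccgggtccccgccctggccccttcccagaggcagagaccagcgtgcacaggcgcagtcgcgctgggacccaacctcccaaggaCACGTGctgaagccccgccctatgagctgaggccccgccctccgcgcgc
Nampt: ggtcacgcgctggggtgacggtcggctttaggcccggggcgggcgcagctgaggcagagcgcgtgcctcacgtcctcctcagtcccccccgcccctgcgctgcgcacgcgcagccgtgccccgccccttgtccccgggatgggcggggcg

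Library totals were 23923030 to 31736083 counts. Levels are given in CPM, counts per 1e6 of a library's total after TMM scaling (trimmed mean of M-values), and 3 counts, the detection floor, equalled 0.101 to 0.135 CPM. Arntl was at 31.5 ± 1.72 CPM in WT control cells and at 13.2 ± 1.82 CPM in KO control cells (SD, n = 3). In senescent cells it was at 36.1 ± 1.10 CPM in WT and 26.6 ± 1.13 CPM in KO, so the count over the whole gene was lower in KO (adjusted p = 2e-09 and 0.000329 by edgeR) but not near 0. The 10 fibroblast markers were all above the floor, with summed levels of 20022 to 20832 CPM in WT control, 9857 to 10268 CPM in WT senescent, 24988 to 26349 CPM in KO control and 11740 to 12163 CPM in KO senescent libraries. Col1a1, Col1a2, Col3a1 and Vim gave most of each sum and fell with senescence in both genotypes. The markers did not move together: 6 of the 10 were higher and 4 lower in WT senescent cells, and 3 higher and 5 lower in KO. The 8 chondrocyte markers summed to 7537 to 9354 CPM, 2114 to 2451 CPM, 4996 to 6866 CPM and 681 to 795 CPM in the same order of groups, a sum to which Col2a1 gave the most. With senescence 7 of the 8 fell in each genotype and Comp rose in WT, and among senescent cells all 8 were lower in KO. Between control cells only 2 of the 8 passed, Col2a1 and Cnmd, both lower in KO, while Acan was at log2 0.02 (adjusted p = 0.93) and Sox9 at 0.11 (adjusted p = 0.447). The part of these cartilage genes in the results that follow was not tested. In bulk RNA, fewer cells of a type and less RNA per cell cannot be told apart. Counts came as 1 table per genotype, so any effect of handling and that of genotype cannot be told apart.

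Parp1 (ENSMUSG00000026496, GRCm38 chromosome 1, 180568924 to 180601254, plus strand) had the highest level per length of the 10 genes in control cells and fell in senescent cells of both genotypes. Its levels were 116, 101 and 120 CPM in WT control libraries and 50.7, 45.6 and 47.4 CPM in WT senescent libraries. They were 114, 106 and 107 CPM in KO control libraries and 40.7, 45.7 and 41.9 CPM in KO senescent libraries. Every senescent library was below every control library, with no overlap and little spread within groups. The log2 fold change was -1.22 (SE 0.07, ratio 0.428) in WT, with an adjusted p of 1.93e-12 by edgeR's quasi-likelihood (QL) test with Benjamini-Hochberg adjustment over all genes, the test behind every adjusted p here. In KO it was -1.35 (SE 0.07, ratio 0.394, adjusted p = 4.18e-13). Mki67, a marker of proliferating cells, fell beside it, in WT from 593 ± 83.4 CPM to 45.6 ± 0.777 CPM and in KO from 580 ± 29.7 CPM to 26.4 ± 8.81 CPM, and its part in the fall of Parp1 was not tested.

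Nnmt (ENSMUSG00000032271, chromosome 9, 48591877 to 48605153, minus strand) moved the other way and had the largest rise of the 10 genes in both genotypes. It was at 2.09, 2.24 and 3.02 CPM in WT control libraries, from 52 to 67 counts, and at 10.3, 10.1 and 10.0 CPM in WT senescent libraries. In KO it was at 3.08, 3.84 and 3.30 CPM in control libraries and at 13.5, 14.7 and 17.6 CPM in senescent libraries. The groups did not overlap in either genotype, and KO libraries lay above the WT libraries of the same state at both states. The log2 fold change with senescence was 2.05 (SE 0.15, ratio 4.15, adjusted p = 3.22e-10) in WT and 2.16 (SE 0.14, ratio 4.47, adjusted p = 4.47e-11) in KO. Parp1 and Nnmt were the only 2 of the 10 genes whose log2 fold change exceeded 1 in size, the size limit for a differentially expressed gene in the study's methods.

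**Figure D1:**
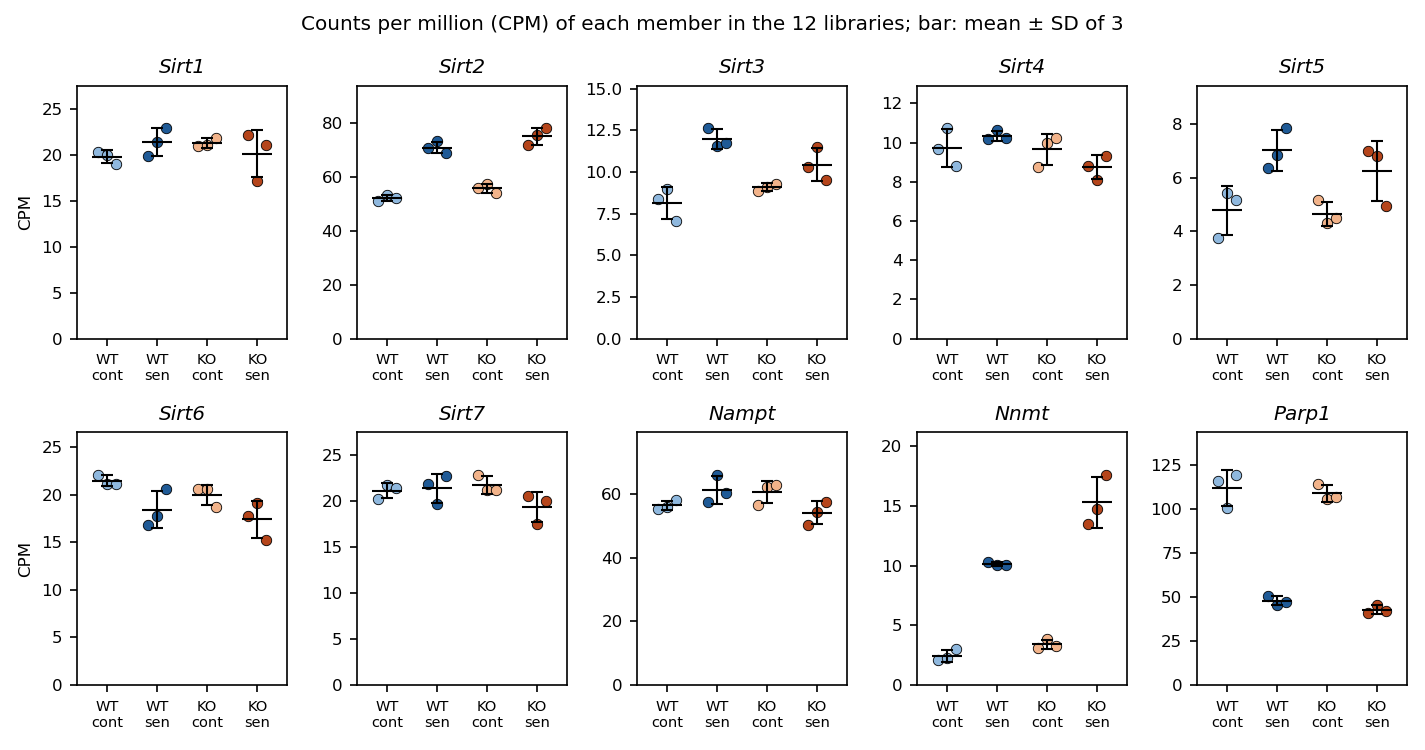
Level of each of the 10 genes in every library, in CPM, with 1 panel per gene and 3 points per group (WT control, WT senescent, KO control, KO senescent), lines marking the group mean and 1 SD. Parp1 drops from above 100 CPM to below 51 CPM and Nnmt climbs from below 4 CPM to above 10 CPM in both genotypes. The other 8 genes have log2 fold changes of smaller size, although Sirt2 rises by more CPM than Nnmt.

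Among the sirtuins, Sirt2 (ENSMUSG00000015149, chromosome 7, 28766735 to 28788661, plus strand), the cytoplasmic deacetylase of tubulin and other proteins, showed the same rise in both genotypes. It was at 51.2, 53.2 and 52.2 CPM in WT control libraries and 70.5, 73.2 and 68.9 CPM in WT senescent libraries. KO control libraries were at 55.8, 57.5 and 54.1 CPM and KO senescent libraries at 71.8, 75.5 and 78.1 CPM. No senescent library overlapped a control library. Sirt2 rose by a log2 fold change of 0.44 (SE 0.05, ratio 1.36, adjusted p = 4.2e-07) in WT and 0.43 (SE 0.05, ratio 1.35, adjusted p = 5.79e-07) in KO.

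The mitochondrial sirtuins differed among themselves. Sirt3 (ENSMUSG00000025486, chromosome 7, 140863666 to 140882309, minus strand), the main mitochondrial deacetylase, was at 8.36, 8.99 and 7.08 CPM in WT control libraries and 12.6, 11.5 and 11.7 CPM in WT senescent libraries. KO control libraries were at 8.84, 9.12 and 9.31 CPM and KO senescent libraries at 10.3, 11.5 and 9.55 CPM. The states were apart in both genotypes, but by less in KO. Sirt3 rose in WT by a log2 fold change of 0.55 (SE 0.11, adjusted p = 0.000285), while in KO the log2 fold change was 0.20 (SE 0.11, 95% interval -0.03 to 0.44, adjusted p = 0.134). Exons of Sirt3 overlap opposite-strand exons of Ric8a by 418 bases and of Psmd13 by 342 bases, and the use of strand in counting was not stated, so its count may hold reads of both. Psmd13 went the other way in WT, from 113 ± 2.25 to 84.5 ± 2.22 CPM, and Ric8a was at 63.5 ± 1.5 and 60.9 ± 1.13 CPM.

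Sirt5 (ENSMUSG00000054021, chromosome 13, 43365496 to 43395203, plus strand), which removes succinyl and malonyl groups, had the lowest level per length of the sirtuins. It was at 3.74, 5.45 and 5.19 CPM in WT control libraries and 6.35, 6.86 and 7.86 CPM in WT senescent libraries. In KO it was at 5.16, 4.31 and 4.51 CPM in control and 7.02, 6.80 and 4.96 CPM in senescent libraries, and the third KO senescent library lay inside the control range. It rose by a log2 fold change of 0.55 (SE 0.17, adjusted p = 0.00896) in WT and 0.43 (SE 0.17, adjusted p = 0.0386) in KO. Leaving out replicate 1 of WT control or replicate 3 of WT senescent cells ended the call in WT (adjusted p up to 0.0718), and the call in KO ended without any 1 of 5 libraries, replicate 2 of WT senescent, KO control replicates 2 and 3 and KO senescent replicates 1 and 2 (adjusted p up to 0.135). Sirt4 (ENSMUSG00000029524, chromosome 5, 115478010 to 115484725, minus strand), a mitochondrial lipoamidase and ADP-ribosyltransferase, was between 8.08 and 10.7 CPM in all 12 libraries. Its log2 fold change was 0.09 (95% interval -0.15 to 0.32) in WT and -0.14 (-0.38 to 0.09) in KO, and neither passed the test.

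The nuclear sirtuins stayed within narrow ranges. Sirt1 (ENSMUSG00000020063, chromosome 10, 63319005 to 63381704, minus strand), a deacetylase of p53, FOXO factors and PGC-1α, lay between 17.2 and 22.9 CPM in all 12 libraries. Its log2 fold change with senescence was 0.11 (95% interval -0.08 to 0.30, adjusted p = 0.315) in WT and -0.08 (-0.27 to 0.11, adjusted p = 0.462) in KO, so an increase or a decrease of more than 0.30 was outside both intervals. Sirt7 (ENSMUSG00000025138, chromosome 11, 120618372 to 120625240, minus strand), a deacetylase at chromatin and in the nucleolus, lay between 17.5 and 22.9 CPM. Its log2 fold change was 0.02 (95% interval -0.15 to 0.19) in WT and -0.17 (SE 0.08, adjusted p = 0.0833) in KO, where all senescent libraries were below all control libraries. Sirt7 shares 124 exon bases with Mafg on its own strand. Opposite-strand overlaps were 65 bases with Gm16145 for Sirt1 and 42 bases with Nfkbib for Sirt2, so these counts are uncertain by the reads in those bases.

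Sirt6 (ENSMUSG00000034748, chromosome 10, 81621785 to 81627797, minus strand), which acts at telomeres and in DNA repair, fell in WT by a small amount. It was at 22.1, 21.2 and 21.1 CPM in WT control libraries and 16.8, 17.8 and 20.6 CPM in WT senescent libraries. Its KO levels were 20.5, 20.6 and 18.7 CPM in control and 17.8, 19.2 and 15.3 CPM in senescent libraries. The WT states were apart by a small gap and the KO states overlapped. The log2 fold change was -0.22 (SE 0.09, adjusted p = 0.0459) in WT and -0.20 (SE 0.09, adjusted p = 0.0726) in KO. The WT call was lost without any 1 of 6 libraries, WT control replicates 1 to 3, WT senescent replicates 1 and 2 and KO senescent replicate 1 (adjusted p = 0.0568 to 0.2), and the KO value passed without KO senescent replicate 2 (log2 fold change -0.28, adjusted p = 0.0262).

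Nampt (ENSMUSG00000020572, chromosome 12, 32819545 to 32853349, plus strand), the salvage enzyme, was second of the 10 genes by level per length in every group and changed little. It was at 55.3, 56.0 and 58.0 CPM in WT control libraries and 57.5, 66.1 and 60.1 CPM in WT senescent libraries. In KO it was at 56.6, 62.2 and 62.9 CPM in control and 50.4, 54.2 and 57.6 CPM in senescent libraries. The states overlapped in both genotypes, with WT senescent libraries at the upper end and KO senescent libraries at the lower end. The log2 fold change was 0.12 (SE 0.06, 95% interval -0.02 to 0.25, adjusted p = 0.126) in WT and -0.16 (SE 0.06, ratio 0.893, adjusted p = 0.0378) in KO. The KO call was lost in 4 of the 7 other settings (DESeq2, DESeq2 size factors, a filter at 1 CPM and the 6 KO libraries alone, adjusted p = 0.0655 to 0.0885) and without either of KO control replicates 2 and 3 or either of KO senescent replicates 1 and 2 (adjusted p = 0.0691 to 0.208).

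By count, 6 of the 10 genes passed the test with senescence in WT, 4 higher and 2 lower, and 5 passed in KO, 3 higher and 2 lower. Over all 17416 genes, 29.2% were higher and 27% lower in WT senescent cells, and 28.5% were higher and 28.6% lower in KO senescent cells. The share of the 10 genes that moved was thus near that of all genes. With the size limit added, 17.4% of all genes in WT and 18.8% in KO passed, beside 2 of the 10. The median log2 fold change of the 10 genes was 0.11 in WT and -0.11 in KO, beside 0.02 and -0.00275 over all genes. The libraries of both states did not overlap for 6 of the 10 genes in WT and 5 in KO, beside 63.2% and 61.6% of all genes.

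**Figure D2:**
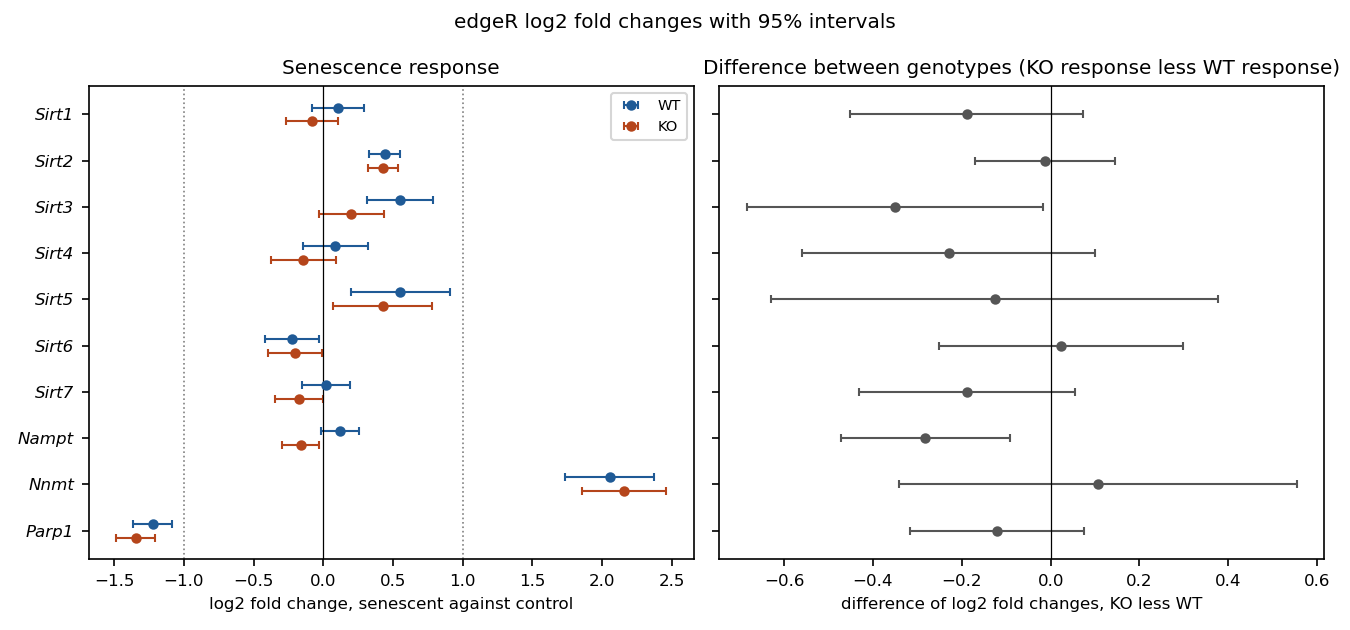
Left, log2 fold change of each gene, senescent against control, in WT and in KO, and right, the KO value less the WT value, all with 95% intervals from the edgeR fit, dotted lines on the left marking a size of 1. Only Nnmt (2.05 and 2.16) and Parp1 (-1.22 and -1.35) lie beyond the dotted lines. The right panel shows Nampt at -0.28 and Sirt3 at -0.35 with intervals below 0, of which only Nampt passed after adjustment.

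The order by level per length changed with senescence. To compare genes with each other, CPM was divided by the length of the gene's merged exons (CPM per kb). Merged exons pool all annotated transcripts, so the length can exceed that of the transcripts present, and ranks depend on it. This length was 5973 bases for Sirt3 and 6093 for Sirt5, but 2398 for Sirt4 and 1576 for Nnmt. In WT control cells Parp1 was first at 21.2 ± 1.90 CPM per kb, followed by Nampt at 11.2 ± 0.278, Sirt2 at 10.4 ± 0.200 and Sirt6 at 7.71 ± 0.200. Then came Sirt7, Sirt4 and Sirt1, between 3.71 and 4.11 CPM per kb, with neighbours whose libraries overlapped, then Nnmt at 1.55 ± 0.318 and Sirt3 at 1.36 ± 0.163, which overlapped too, and Sirt5 last at 0.787 ± 0.152 CPM per kb. In WT senescent cells Sirt2 was first at 14.1 ± 0.429 CPM per kb and Nampt second at 12.1 ± 0.865, with Parp1 next at 9.05 ± 0.490. Nnmt had moved up to 6.43 ± 0.107 CPM per kb, a level that overlapped that of Sirt6 at 6.61 ± 0.701. KO control cells had the same order as WT control cells, but Nampt at 12.0 ± 0.680 and Sirt2 at 11.1 ± 0.335 CPM per kb overlapped and Nnmt at 2.16 ± 0.247 was clear of Sirt3 at 1.52 ± 0.0400. In KO senescent cells Sirt2 was first at 14.9 ± 0.628 CPM per kb, and Nnmt at 9.70 ± 1.34 came after Nampt, with libraries that overlapped those of both Nampt at 10.7 ± 0.713 and Parp1 at 8.09 ± 0.492. Sirt3 and Sirt5 were the lowest sirtuins per length in all 4 groups, but for Sirt3 this rested on the length used. Before division by length, Sirt3 was below Sirt4 in WT control (8.14 and 9.74 CPM) and KO control cells (9.09 and 9.65 CPM). It was above Sirt4 in WT senescent (12.0 and 10.3 CPM) and KO senescent cells (10.5 and 8.74 CPM).

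**Figure D3:**
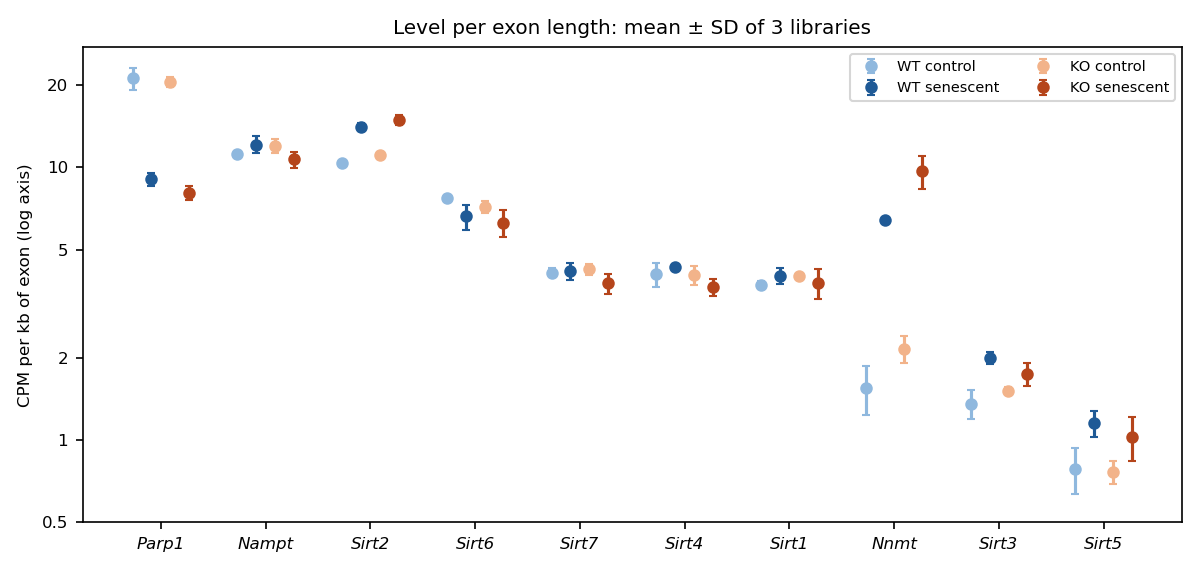
Mean level per length (CPM per kb of exon, log axis) of each gene in the 4 groups, with bars of 1 SD over 3 libraries. Parp1 is first in both control groups (21.2 and 20.6) and Sirt2 in both senescent groups (14.1 and 14.9), while Nnmt climbs from 1.55 to 6.43 in WT and from 2.16 to 9.70 in KO.

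Replicates of the 10 genes were close at the median, but the coefficient of variation of single genes reached 20.5% (Nnmt in WT control libraries). Sirt5 was at 19.3% in WT control and 18.1% in KO senescent libraries, and Sirt1 at 12.9% in KO senescent libraries. The median coefficient of variation within a group was 6.44% in WT control, 6.27% in WT senescent, 4.87% in KO control and 8.95% in KO senescent libraries for these genes, and 9.23%, 6.77%, 9.09% and 9.04% for all tested genes.

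Whether the response to senescence depended on BMAL1 was tested by the interaction, the KO log2 fold change less the WT one. Nampt was the only 1 of the 10 genes to pass, at -0.28 (SE 0.09, 95% interval -0.47 to -0.09, adjusted p = 0.0334), from 0.12 in WT, which did not pass, and -0.16 in KO. Over all genes, 9.24% had a higher and 11.7% a lower KO response, and 3.66% passed with the size limit. The Nampt call did not hold with DESeq2 (adjusted p = 0.0616), with DESeq2 size factors (adjusted p = 0.058) or without any 1 of 8 of the 12 libraries, all but replicate 3 of WT control, replicate 1 of WT senescent, replicate 1 of KO control and replicate 3 of KO senescent cells. Its value stayed between -0.30 and -0.23 without those 8 (adjusted p = 0.0504 to 0.118). Sirt3 had the largest difference in size, at -0.35 (SE 0.16, 95% interval -0.68 to -0.02), but its adjusted p was 0.131. For Parp1 the difference was -0.12 (95% interval -0.32 to 0.08), for Sirt2 -0.01 (-0.17 to 0.14) and for Nnmt 0.11 (-0.34 to 0.55), and none of the 3 passed. The interval for Sirt2 bounds a difference between genotypes at 0.17 in size. Apart from Sirt3, the intervals of the remaining sirtuins reached down to -0.63 (Sirt5).

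KO was then compared with WT at each state. In control cells, 0 of the 10 genes passed edgeR's test, beside 8.07% of all genes higher and 4.96% lower in KO, 2.54% with the size limit, and 1 of the 10, Nnmt, had an unadjusted p under 0.05. DESeq2 and limma-voom called 0 as well. Nnmt was higher in KO control cells by a log2 value of 0.49 (95% interval 0.13 to 0.84, adjusted p = 0.0628). It passed without WT control replicate 3 (0.66, adjusted p = 0.0189) or KO control replicate 1 (0.56, adjusted p = 0.0458). The other intervals were narrower for abundant genes, at -0.03 to 0.24 for Nampt, -0.18 to 0.09 for Parp1 and -0.09 to 0.29 for Sirt1. Libraries did not overlap between genotypes for 4 of the 10 genes (Sirt1, Sirt2 and Nnmt higher, Sirt6 lower), beside 25.9% of all genes.

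In senescent cells, 2 of the 10 genes passed, beside 11.9% of all genes higher and 11.8% lower in KO, and 3.48% with the size limit. Nnmt was higher in KO by a log2 value of 0.59 (SE 0.13, ratio 1.51, adjusted p = 0.00196), with all KO libraries at 13.5 CPM or more and all WT libraries at 10.3 CPM or less. Nampt was lower in KO by -0.18 (SE 0.06, ratio 0.883, adjusted p = 0.0488), with libraries that overlapped by a narrow margin, 57.6 CPM as the highest KO value and 57.5 CPM as the lowest WT value. This call was lost with DESeq2 (adjusted p = 0.102), with limma-voom (0.0514), when the 6 senescent libraries were fitted alone (0.055) and without any 1 of the same 8 libraries (0.0501 to 0.277). Sirt4 and Sirt3 libraries were also all lower in KO than in WT, at log2 values of -0.24 (adjusted p = 0.123) and -0.20 (adjusted p = 0.219), which did not pass. Libraries were apart for 42% of all genes. The comparisons within a genotype and within a state share groups, so these values are not independent of those for senescence.

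Clock genes with E-boxes were read beside these genotype differences. Of 13 such genes, 9 passed between KO and WT control cells, 6 higher and 3 lower, and 9 in senescent cells, 6 higher and 3 lower. Over all genes the shares were 8.07% higher and 4.96% lower in control cells and 11.9% and 11.8% in senescent cells. Nr1d1, a repressor driven directly by BMAL1, was at 18.1 ± 2.78 CPM in WT and 4.13 ± 0.447 CPM in KO control cells, a log2 value of -2.12 (adjusted p = 4.16e-11), and -1.45 in senescent cells (adjusted p = 1.71e-09). Its relative Nr1d2 was lower by -1.98 and -2.54. The repressors Per2 and Cry1 were higher in KO control cells, by 3.04 and 2.26, and in senescent cells by 1.96 and 2.52. Dbp, a clock output factor, was higher in KO control cells by 0.74 (adjusted p = 0.0353) and at -0.36 in senescent cells (adjusted p = 0.222). Its relative Hlf was lower in KO control cells by -1.28 (adjusted p = 0.0105) and at -0.27 in senescent cells (adjusted p = 0.596). Per3 was at -0.06 in control cells (adjusted p = 0.884) and lower in KO senescent cells by -1.04 (adjusted p = 8.44e-05). The Nr1d2, Per2 and Cry1 values all had smaller adjusted p-values than that of Per3 in senescent cells. The Nampt values of 0.10 and -0.18 were smaller in size than those of Nr1d1, Nr1d2, Per2 and Cry1, but other genes of the list were as close to 0, such as Per1 at 0.23 and 0.05 and Bhlhe40 at -0.01 and 0.21 in control and senescent cells, a pair named after their values were seen.

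**Figure D4:**
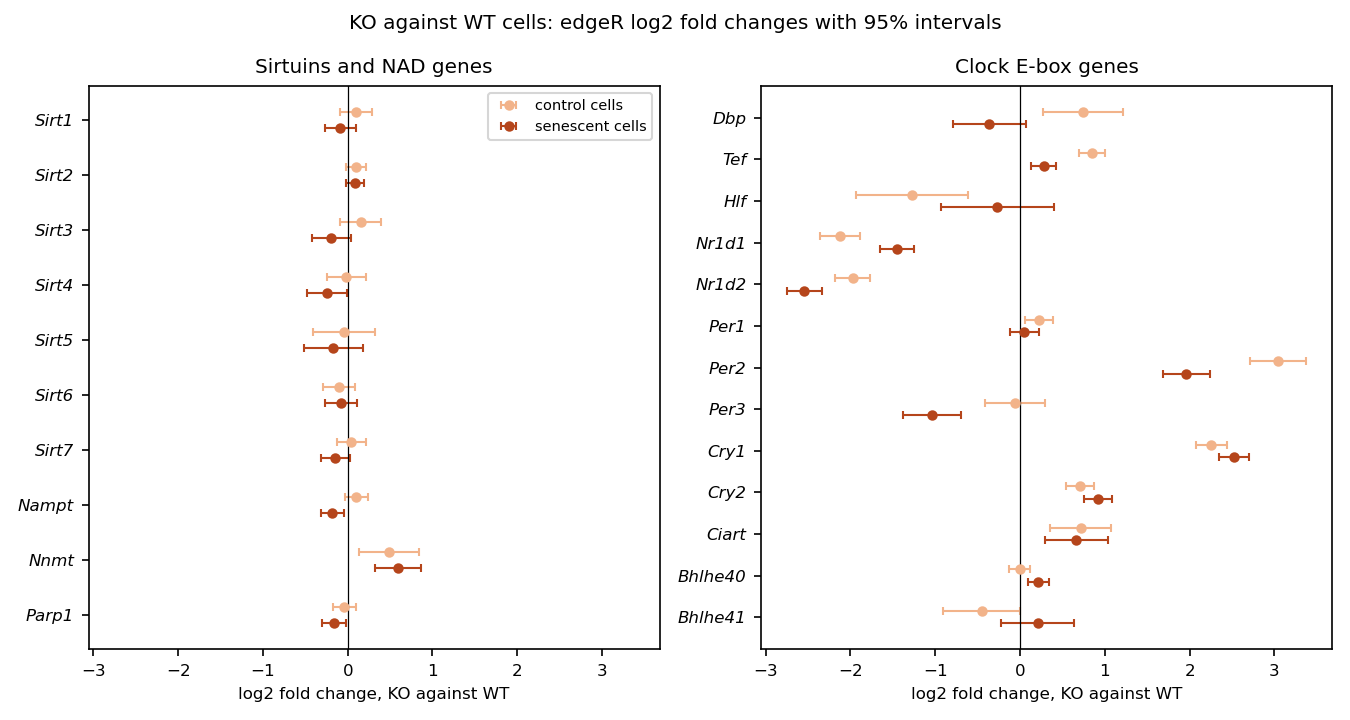
Log2 fold change of KO against WT in control and in senescent cells for the 10 genes (left) and the 13 clock E-box genes (right), with 95% intervals. The 10 genes lie between -0.24 and 0.59, while Nr1d1, Nr1d2, Per2 and Cry1 lie beyond 1 in size in both states.

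The rest of the pathway was read from 6 lists of 71 genes, of which 61 were tested. With senescence 22 were higher and 12 lower in WT, and 15 were higher and 18 lower in KO, with medians of 0.13 and 0.06. The background over all genes was 29.2% higher and 27% lower in WT and 28.5% higher and 28.6% lower in KO, so the share that passed was near that of all genes. In the interaction 5 had a higher and 11 a lower KO response, beside 9.24% and 11.7% of all genes. Between genotypes 6 were higher and 3 lower in KO control cells, beside 8.07% and 4.96% of all genes, and 5 higher and 10 lower in KO senescent cells, beside 11.9% and 11.8%.

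The lists of NAD synthesis and of the kynurenine pathway gave mixed counts. Of the 8 tested genes of NAD synthesis, 1 was higher and 2 lower in WT senescent cells and 1 was higher and 1 lower in KO senescent cells. That list includes Nadk, which makes NADP and was 1 of the 2 lower in WT. The all-gene shares were 29.2% higher and 27% lower in WT and 28.5% and 28.6% in KO. Naprt, which starts NAD synthesis from nicotinic acid, fell in both, in WT from 12.6 ± 1.25 to 10.1 ± 0.965 CPM (log2 fold change -0.31, adjusted p = 0.0356) and in KO from 16.2 ± 2.41 to 6.51 ± 0.667 CPM (-1.32, adjusted p = 1.35e-08). The difference between genotypes passed, at -1.0 (adjusted p = 0.000472). Of the 8 tested kynurenine genes, 2 were higher and 1 lower in WT and 1 was higher and 3 lower in KO. The pathway leads from tryptophan to NAD, but not every gene of the list lies on that route. Ido2, a tryptophan dioxygenase, was near the floor, with WT control cells at 0.144 ± 0.117 CPM and WT senescent cells at 0.672 ± 0.0603 CPM (log2 fold change 2.22, adjusted p = 0.00114).

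Genes of the PARP family, of ADP-ribose turnover and of NAD breakdown moved in both directions, and not all of them spend NAD. Of 19 tested genes of the PARP family and of ADP-ribose turnover, 11 were higher and 3 lower in WT senescent cells, and 6 were higher and 5 lower in KO senescent cells. The all-gene shares were 29.2% higher and 27% lower in WT and 28.5% and 28.6% in KO, so the KO counts were near the background. Parp10, Parp14 and Parp9, members of the family linked to interferon and antiviral responses, rose in both genotypes. Parp10 rose from 3.08 ± 0.475 to 14.8 ± 2.15 CPM in WT (log2 fold change 2.26) and by 1.96 in KO, Parp14 by 1.96 and 1.49, and Parp9 by 1.33 and 0.82. Parp2, the closest relative of Parp1 in DNA repair, was named after its values were seen: it fell by 0.70 on the log2 scale in WT (adjusted p = 2.86e-07) and by 0.83 in KO (adjusted p = 2.07e-08). Tiparp, a mono-ADP-ribosyltransferase induced by the aryl hydrocarbon receptor, rose in WT from 37.6 ± 4.10 to 60.4 ± 5.81 CPM and in KO from 26.6 ± 1.05 to 101 ± 17.5 CPM, and the responses differed by 1.24 (adjusted p = 0.00047). Cd38, an NAD glycohydrolase of the cell surface, had WT levels of 6.67 ± 0.699 CPM in control and 8.21 ± 0.820 CPM in senescent cells (log2 fold change 0.30, adjusted p = 0.0637) and fell in KO from 9.93 ± 1.05 to 5.44 ± 0.513 CPM (-0.87, adjusted p = 1.03e-05). Its responses differed by -1.17 (adjusted p = 0.000219). Of the 3 tested glycohydrolases 1 was higher in WT, and 1 was higher and 1 lower in KO.

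Among 10 tested genes of nicotinamide clearance, methyl supply and transport, 3 were higher and 4 lower in WT and 2 were higher and 6 lower in KO. Over all genes, 29.2% were higher and 27% lower in WT and 28.5% and 28.6% in KO. Aox1, an oxidase that acts on the methylated nicotinamide made by NNMT, also rose, in WT from 2.22 ± 0.411 to 11.6 ± 1.22 CPM (log2 fold change 2.39, adjusted p = 8.86e-11) and in KO from 3.22 ± 0.297 to 13.6 ± 2.46 CPM (2.07, adjusted p = 2.82e-10). Ahcy, which clears the by-product of methyl transfer, fell in WT from 150 ± 14.3 to 70.7 ± 3.67 CPM (-1.08, adjusted p = 5.62e-10) and by 0.81 on the log2 scale in KO. Of 13 tested regulators and substrates of sirtuins, 4 were higher and 2 lower in each genotype, beside the same all-gene shares. Idh2, a mitochondrial substrate of SIRT3, fell in WT from 73.0 ± 2.03 to 28.7 ± 2.54 CPM (-1.34) and in KO from 81.7 ± 0.885 to 19.5 ± 1.10 CPM (-2.07), with a difference of -0.72 (adjusted p = 2.5e-05). Ppargc1a, which encodes PGC-1α, rose in WT from 2.06 ± 0.601 to 4.68 ± 0.849 CPM (1.18, adjusted p = 0.000184) and was at 1.63 ± 0.329 and 1.70 ± 0.127 CPM in KO (difference -1.12, adjusted p = 0.0241).

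**Figure D5:**
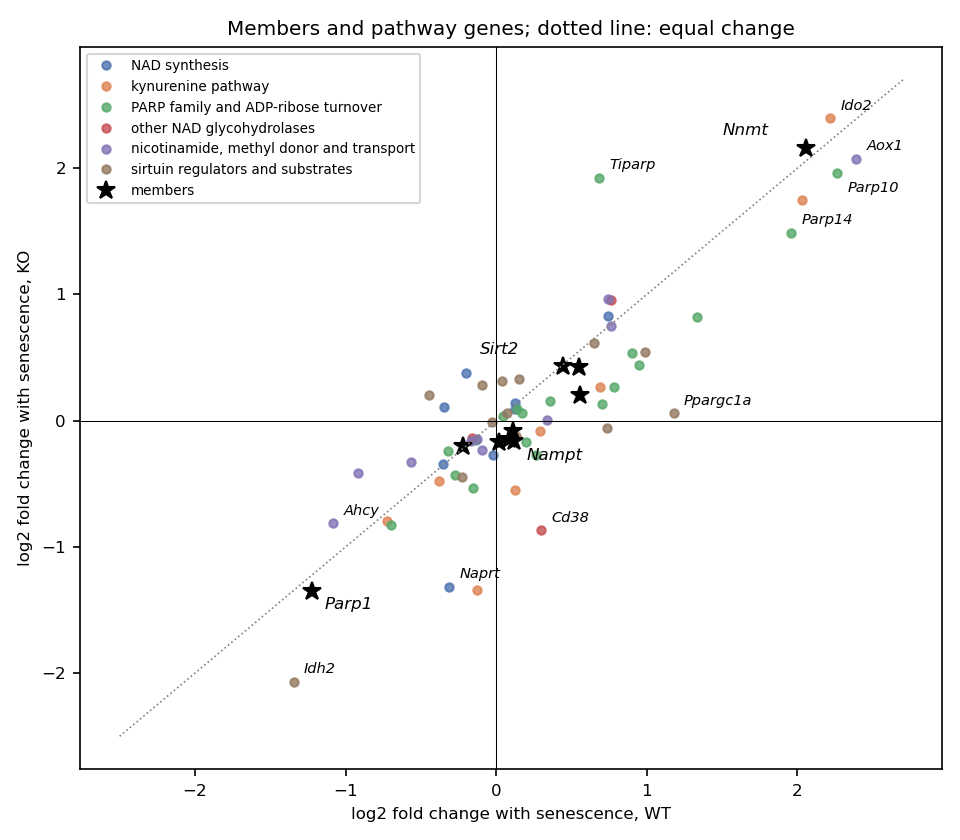
Log2 fold change with senescence in WT (x axis) against that in KO (y axis) for the 10 genes (stars) and the tested genes of the 6 pathway lists (points), the dotted line marking equal change. Nnmt, Aox1 and Parp10 lie together at the upper right and Parp1 and Idh2 at the lower left, while Tiparp, Cd38 and Naprt lie off the dotted line.

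Genes with like patterns over the 12 libraries were ranked by Pearson's r of log2(CPM + 0.5) among 10944 genes, as a description, since the libraries fall into 4 groups that share their treatment. For Parp1 the closest were Chtf18, Fanca and Fignl1, each with r = 0.998, and for Nnmt Brox (0.995), Hsd17b7 (0.993) and Aga (0.992). For Nampt the highest values were 0.898 (Tapbp), 0.876 (Prr33) and 0.849 (Zfp995), and for Sirt1 0.766 (Tmem135), 0.755 (Btbd2) and 0.720 (Ptbp2). The patterns of Parp1 and Nnmt, with a large change, were thus matched more closely by other genes than those of Nampt and Sirt1, with levels that varied little.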

How the data were processed

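The deposited values were raw counts, whole numbers per gene and library, in 1 table per genotype. The authors made them from poly(A) RNA libraries by trimming reads with Trimmomatic 0.36, mapping them to GRCm38 with STAR 2.5.2b, and counting uniquely mapped reads in exons with featureCounts, and the submitters' processing notes also name bcl2fastq 2.17. Use of strand and annotation release were not given in the sources used here. Of 49315 identifiers, 49056 matched GENCODE vM21, which gave symbols, exon lengths and coordinates. Unique mapping lowers the counts of genes with near-identical copies.

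Groups came from the sample labels. Genes were kept with filterByExpr (17416), scaled by TMM and fitted in edgeR 4.0.16 (R 4.3.3, limma 3.58.1) with 1 mean per group over all 12 libraries. QL F-tests gave 5 comparisons, with p-values adjusted over all genes by the Benjamini-Hochberg method. A gene passed at an adjusted p under 0.05. The SE was the size of the log2 fold change divided by the square root of F. The fit was tested on simulated data. CPM used TMM-scaled totals. No molecular identifiers were used, so intervals and floors cover counting error and the spread of the libraries alone. Chi-square per degree of freedom between replicates was 3.22 or more, above what counting error alone would give for 1 library sequenced again. It cannot tell whether the libraries of a group came from 1 culture or several.

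The 10 genes and all lists were chosen with earlier results of these data known. All 10 were named, and of the listed genes those averaging 1 CPM or more with an adjusted p under 0.05 and a log2 fold change over 1 in size in any comparison, or the smallest adjusted p where a list had none. For likeness, the 3 genes of at least 5 CPM with the highest r were named. Alternatives were DESeq2 1.42.0, limma-voom, DESeq2 size factors, 2 other count filters, the compared libraries alone, a replicate block and each library left out.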

Additional observations from a re-analysis of the deposited data

Results flagged for a closer look

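Nampt was singled out because its senescence response differed between genotypes by a test of the difference itself. The interaction was -0.28 on the log2 scale (edgeR QL test, adjusted p = 0.0334), from 0.12 in WT and -0.16 in KO. Leaving out 1 library ended the call for 8 of the 12 libraries (adjusted p = 0.0504 to 0.118), and no group had more than 3 libraries.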

How the results depend on the processing

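Of the other settings, 325 results kept their direction and their side of the threshold, 12 no longer passed and 3 changed sign; without 1 library the numbers were 540, 33 and 24, and 3 newly passed. The falls of Parp1 and the rises of Nnmt and Sirt2 with senescence in both genotypes, and the rise of Sirt3 in WT, held in all settings run. Genes that passed in the interaction numbered 0 with DESeq2 and with its size factors, and for KO against WT in senescent cells 1 with DESeq2, limma-voom, those size factors and the 6 libraries alone. Nampt in KO senescence was lost under DESeq2, its size factors, the 1 CPM filter and the 6 libraries alone (adjusted p = 0.0655 to 0.0885) and without KO control replicates 2 or 3 or KO senescent replicates 1 or 2 (up to 0.208). Sirt5 in KO was lost with limma-voom (0.0509) and Sirt6 in WT with the 1 CPM filter (0.0692). Listed genes higher in KO control cells numbered 3 with the 6 libraries alone. Signs near 0 turned for Sirt7 in WT (-0.014, 6 libraries alone) and for the Sirt2 interaction (0.016 with DESeq2, 0.017 with its size factors). The cause of these changes was not tested.

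Without 1 library, genes that passed ranged from 3 to 5 with senescence in KO, 0 to 1 in the interaction, 0 to 1 for KO against WT in control and 1 to 2 in senescent cells. Listed genes ranged from 3 to 6 higher in the interaction, 3 to 9 higher and 1 to 3 lower in KO control cells, and 3 to 5 higher in KO senescent cells. Values that turned sign ranged from -0.025 to 0.076 (Sirt7, senescence in WT) and -0.14 to 0.018 (Sirt1, senescence in KO). In the interaction they ranged from -0.044 to 0.023 (Sirt2), -0.23 to 0.027 (Sirt5), -0.055 to 0.11 (Sirt6) and -0.070 to 0.21 (Nnmt). For KO against WT they ranged from -0.077 to 0.063 (Sirt4), -0.19 to 0.066 (Sirt5) and -0.11 to 0.012 (Parp1) in control cells, and from -0.16 to 0.014 (Sirt1) and -0.15 to 0.0085 (Sirt6) in senescent cells.

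Whether replicate numbers pair the libraries is not stated in the sources used here, and correlations over 3 libraries per group cannot decide it. The best match had the same number for replicates 2 and 3 between WT states and for replicate 2 between KO states. It did so for replicates 1 and 2 between control genotypes and for replicate 1 between senescent genotypes. Same-numbered deviations correlated at -0.01, 0.16 and 0.18 between WT states, at -0.19, 0.32 and -0.33 between KO states, at 0.04, 0.31 and -0.21 between control genotypes and at 0.12, -0.00 and -0.10 between senescent genotypes. With a replicate block, 6, 5, 1, 0 and 2 of the 10 genes passed in the 5 comparisons, as without it, and the Nampt interaction was -0.28 (adjusted p = 0.031). Counts per library were 93 to 204 for Sirt5 and 52 to 522 for Nnmt, and which genes depth limited was not tested.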

Other observations

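Of the 71 listed pathway genes, Qprt, the enzyme that joins the kynurenine route to NAD, was too low to be tested, at mean levels of 0 CPM in WT control, 0.186 CPM in WT senescent, 0.0133 CPM in KO control and 0.285 CPM in KO senescent cells. Aox3, a second oxidase of methylated nicotinamide, was likewise untested, at 0.0284, 0.443, 0.0798 and 0.201 CPM in the same order. Both were chosen after their values were seen, and several of these means lie below the floor of 0.101 to 0.135 CPM.

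Within the NAD synthesis list, 2 more genes passed beside Naprt, both also named after their values were seen. Nmnat2, which makes NAD from its mononucleotide, rose from 6.19 ± 1.25 to 10.4 ± 0.705 CPM in WT (log2 fold change 0.74, adjusted p = 9.28e-05 by edgeR's QL test) and from 6.76 ± 0.803 to 12.0 ± 0.272 CPM in KO (0.83, adjusted p = 2.01e-05). Nadk, which makes NADP, fell in WT from 198 ± 10.4 to 156 ± 1.92 CPM (-0.35, adjusted p = 3.37e-05) and was at 175 ± 14.6 and 189 ± 7.71 CPM in KO, and the responses differed by 0.46 (adjusted p = 0.000627). Parp3 passed in both genotypes with opposite signs, 0.26 in WT (adjusted p = 0.000106) and -0.27 in KO (adjusted p = 6.77e-05), with a difference of -0.54 (adjusted p = 2.88e-05). Foxo1, a SIRT1 substrate, rose by 0.65 in WT and 0.61 in KO. Its listed relatives differed from it. Foxo3 rose by 0.99 in WT and 0.55 in KO, a difference of -0.44 (adjusted p = 0.000466), and Foxo4 was at -0.03 and -0.01. Parp3, the Foxo genes and Nt5e were also named after their values were seen. Nt5e, an ectonucleotidase that acts on extracellular NAD precursors, fell by 0.92 on the log2 scale in WT and by 0.41 in KO. The responses differed by 0.51 (adjusted p = 0.000269).

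Markers of the other cell types summed to less than those of fibroblasts and chondrocytes. Summed levels were at most 19.8 CPM for keratinocyte, 19.2 CPM for macrophage, 14.3 CPM for melanocyte and 8.83 CPM for endothelial markers in any library, 13.9 to 58.8 CPM for skeletal muscle and 31.5 to 70.7 CPM for adipocyte markers, of which Lep and Retn were under the floor in every group.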
